A study of Mus musculus with 2 samples.

Results

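Sox genes encode transcription factors with an HMG box, and the 9 examined here were Sox2, Sox21, Sox4, Sox11, Sox8, Sox9, Sox10, Sox17 and Sox15. They were taken as prosensory, supporting-cell and glial Sox genes together with others whose motifs the study named. Sox3, also named there, was not among the 9 and is read with the remaining Sox genes. All 9 were found among the 21938 protein-coding genes of the GENCODE vM21 annotation of GRCm38. ATAC-seq peaks were assigned to them in 2 ways. A promoter peak had its centre within 3 kb of any annotated transcription start site (TSS) of the gene, and a locus peak had its centre in the gene body or within 50 kb on either side. Of 77596 peaks in the list that GEO labels WT (the WT list), 64 fell in the 9 loci, and of 100431 in that labelled Bmi1 KO (the Bmi1 KO list), 84 did.

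Sox proteins bind DNA through the HMG box, which bends the minor groove at a short core that reads CCATTGT or CCTTTGT, and they act with partner factors that set their target genes. In the cochlea, Sox2 marks the prosensory domain and later the supporting cells, and it is needed before Atoh1 can start hair cell formation. Sox9 and Sox10 are active from the otic placode onward, and Sox10 is also the master factor of Schwann cells and satellite glia. Open chromatin at a gene shows where transposase could cut and does not measure its expression.

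ATAC-seq, which marks accessible DNA by transposase insertion, was performed on the organ of Corti of P2 neonatal mice. The WT pool carried the wild-type gene, and the other pool was homozygous for the germline Bmi1 tm1Brn allele (Bmi1-/-, labelled Bmi1 KO). The animals were littermates of a line that came from FVB.129P2 stock and was backcrossed 10 to 12 times to C57BL/6J. Bmi1, a subunit of Polycomb repressive complex PRC1, was therefore not deleted in the epithelium alone. Each genotype was represented by 1 library of 20000 cells from 10 pooled mice (20 cochleae), so differences between the lists had no replicate error and were not tested. All intervals are exact 95% intervals that cover counting error only.

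The peak names inside the files contradicted the labels. All peaks (100%) of the WT list carried names beginning with bko, and all those of the Bmi1 KO list names beginning with bwt. The GEO labels were kept, and every direction between genotypes below rests on them. If the names were right, each direction would be turned. Bmi1 itself had a promoter peak in both lists, at percentile 40.1 (WT) and 92.0 (Bmi1 KO) of the −log10 p within its own list, which does not show whether the gene is intact. The commonest background was 6.32 reads for WT and 8.04 for Bmi1 KO, a ratio of 1.27, so the libraries may differ in depth. Of 10 markers each, 8 hair cell genes in each list, and 9 (WT) and 8 (Bmi1 KO) supporting cell genes, had a promoter peak, against 59.1% and 68.2% of all genes. Promoter peaks were also present at markers of cells outside the epithelium, with 7 and 9 of 10 for spiral ganglion neurons, 5 and 6 for glia, 8 and 7 for endothelium, 5 and 5 for mesenchyme and 5 and 2 for blood and macrophages. The part of such cells in the Sox peaks was not tested.

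The upstream sequences of 3 members are printed as examples of how far the peaks of each list reached. RefSeq promoters (GRCm38.p6) were matched for 6 of the 9 genes. The 250 bases before the RefSeq start of Sox2 were chr3:34649745-34649994 on the plus strand, those of Sox11 chr12:27342719-27342968 and those of Sox4 chr13:28953700-28953949, both on the minus strand. The RefSeq starts of Sox2 and Sox11 lie upstream of those in GENCODE. Capitals mark the Sox core (CCATTGT or CCTTTGT), the GC box (GGGCGG) and the CCAAT box (CCAAT), each on either strand.
Sox2: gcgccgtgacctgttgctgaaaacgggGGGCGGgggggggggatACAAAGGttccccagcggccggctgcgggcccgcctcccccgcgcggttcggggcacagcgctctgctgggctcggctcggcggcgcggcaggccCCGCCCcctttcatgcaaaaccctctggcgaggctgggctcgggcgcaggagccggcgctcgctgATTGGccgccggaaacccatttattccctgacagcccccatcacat
Sox11: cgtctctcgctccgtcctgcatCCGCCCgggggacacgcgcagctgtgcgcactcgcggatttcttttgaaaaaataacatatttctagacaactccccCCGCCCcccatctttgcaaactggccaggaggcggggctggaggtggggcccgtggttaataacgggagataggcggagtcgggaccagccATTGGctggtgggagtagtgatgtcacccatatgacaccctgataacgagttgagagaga
Sox4: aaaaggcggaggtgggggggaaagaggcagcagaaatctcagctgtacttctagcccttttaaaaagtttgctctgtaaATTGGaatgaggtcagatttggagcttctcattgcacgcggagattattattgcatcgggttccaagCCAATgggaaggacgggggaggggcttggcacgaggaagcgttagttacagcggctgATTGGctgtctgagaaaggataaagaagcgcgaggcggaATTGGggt

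The Sox2 region held 1 Sox core, 2 GC boxes and 1 CCAAT box, the Sox11 region 2 GC boxes and 1 CCAAT box, and the Sox4 region 4 CCAAT boxes. Among 27025 RefSeq promoters, 7.91% held a Sox core, 32.9% a GC box and 34.5% a CCAAT box in the same 250 bases. Bmi1 KO peaks covered all 250 bases of the Sox2 and Sox11 regions and 0 of the Sox4 region. WT peaks covered 0 bases at Sox2, 111 at Sox11 and 147 at Sox4. In the same window, not printed, WT peaks covered 0 bases and Bmi1 KO peaks 208 at Sox8, 220 and 157 at Sox21, and 0 and 0 at Sox15.

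Away from any TSS, 5 members had a pair of peaks that overlapped between the lists, with the window printed here outside exons. For each of them the pair whose lower percentile of the 2 lists was highest is shown, as 201 bases about the summit of the Bmi1 KO peak, on the plus strand of GRCm38, with the Sox core in capitals. They lay at chr14:118240848-118241048 (Sox21, 3.86 kb upstream), chr13:28958879-28959079 (Sox4, 5.21 kb upstream), chr12:27355907-27356107 (Sox11, 13.5 kb upstream), chr17:25592368-25592568 (Sox8, 21.8 kb upstream) and chr11:112770659-112770859 (Sox9, 11.2 kb upstream).
Sox21: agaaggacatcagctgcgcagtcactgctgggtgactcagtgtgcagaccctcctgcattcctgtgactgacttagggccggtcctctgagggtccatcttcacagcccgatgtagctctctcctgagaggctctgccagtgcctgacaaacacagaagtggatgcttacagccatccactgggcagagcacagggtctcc
Sox4: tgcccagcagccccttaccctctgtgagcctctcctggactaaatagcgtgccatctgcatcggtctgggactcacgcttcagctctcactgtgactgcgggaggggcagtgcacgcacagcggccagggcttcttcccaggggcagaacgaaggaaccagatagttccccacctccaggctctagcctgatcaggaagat
Sox11: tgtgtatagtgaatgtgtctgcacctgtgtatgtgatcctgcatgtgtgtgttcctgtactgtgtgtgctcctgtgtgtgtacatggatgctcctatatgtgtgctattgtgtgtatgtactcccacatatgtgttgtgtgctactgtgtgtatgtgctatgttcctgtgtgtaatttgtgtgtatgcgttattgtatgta
Sox8: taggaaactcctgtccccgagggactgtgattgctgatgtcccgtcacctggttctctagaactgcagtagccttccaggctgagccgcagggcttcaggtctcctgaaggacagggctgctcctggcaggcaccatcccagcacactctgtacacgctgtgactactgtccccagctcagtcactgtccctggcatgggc
Sox9: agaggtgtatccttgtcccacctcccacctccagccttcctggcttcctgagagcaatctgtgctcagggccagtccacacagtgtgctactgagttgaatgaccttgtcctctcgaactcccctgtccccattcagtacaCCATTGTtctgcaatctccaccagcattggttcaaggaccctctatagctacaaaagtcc

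The WT peak covered all 201 printed bases at Sox21 and Sox11, but 121 at Sox8, 84 at Sox4 and 57 at Sox9, where its edge fell within the Sox core. Of these 5 regions the one upstream of Sox9 held a Sox core and the other 4 held none. The Sox11 region is rich in a TG repeat, with 76.6% of its bases soft-masked in the reference, against 45.3% at Sox21, 11.4% at Sox9 and 0% at Sox4 and Sox8. At Sox4 the pair stood at percentile 76.7 (WT) and 61.5 (Bmi1 KO), at Sox8 at 63.4 and 51.8, at Sox11 at 56.8 and 44.0, at Sox9 at 35.7 and 44.0, and at Sox21 at 40.1 and 15.8. A further Sox4 pair, not printed, stood at 89.9 (WT) and 50.2 (Bmi1 KO).

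Promoter peaks were found in both lists for 7 of the 9 genes, Sox2, Sox21, Sox4, Sox11, Sox8, Sox9 and Sox17, against 53.0% of all protein-coding genes. The WT promoter peaks of Sox11, Sox8 and Sox17 did not reach a q-value under 0.05. Sox15 had promoter peaks in the Bmi1 KO list only, as did 15.2% of all genes. Sox10 had none in either list, as did 25.7% of all genes. Strength was compared as the percentile of the −log10 p of the strongest promoter peak within its own list. This percentile depends on how many weaker peaks each list holds. Its median over all genes with a promoter peak was 76.8 (WT) and 87.3 (Bmi1 KO). By this measure 7 of the 8 genes that had one in at least 1 list ranked higher in Bmi1 KO, and Sox21 ranked higher in WT. The same direction was seen for 68.6% of all protein-coding genes with such a peak, so the members leaned the way most genes did.

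**Figure D1:**
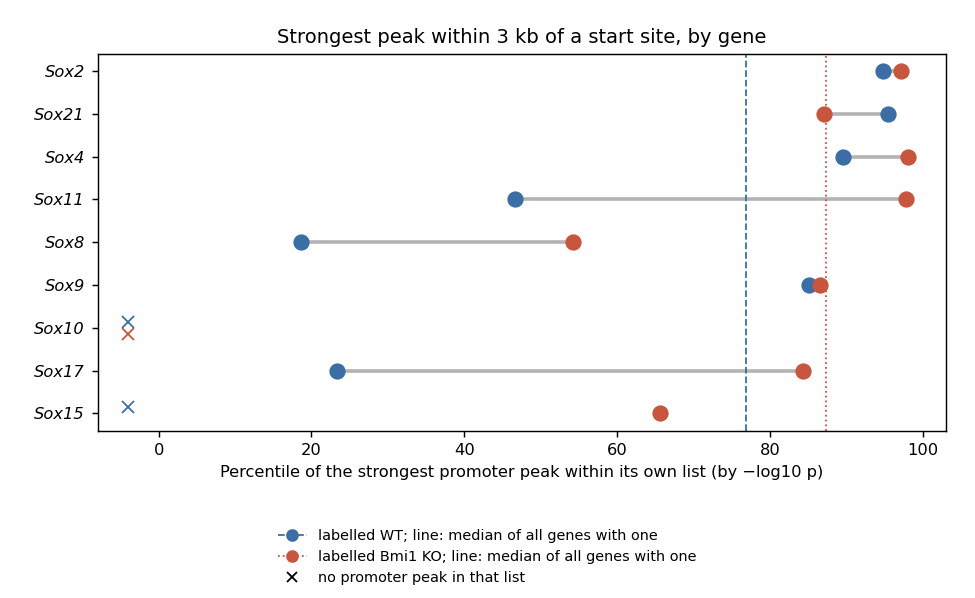
Percentile (x axis, within each list, by −log10 p) of the strongest peak within 3 kb of a start site of each Sox gene, with 1 point per library and dashed or dotted lines at the median over all genes with a promoter peak, 76.8 (WT) and 87.3 (Bmi1 KO). Sox17 (23.3 against 84.3) and Sox11 (46.6 against 97.8) are farthest apart, Sox21 is the reverse of the others, and crosses mark genes with no promoter peak.

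Promoter peaks of the lists overlapped each other by at least 1 bp at 5 genes, Sox2, Sox21, Sox4, Sox11 and Sox17, against 40.4% of all genes. Their reads over background were taken for each peak at its own summit, and the summits of a pair can lie at different positions. Those in the Bmi1 KO library were a median of 1.18 times those in the WT library, ranging from 0.678 at Sox21 to 1.39 at Sox11. The median over 8853 genes with such a pair was 1.01. None of the 5 reached 1.5 times, against 3.55% of all pairs. The counting interval of each of these 5 ratios included 1. Promoter peaks found in 1 list only had no ratio, so nothing is said here about them.

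**Figure D2:**
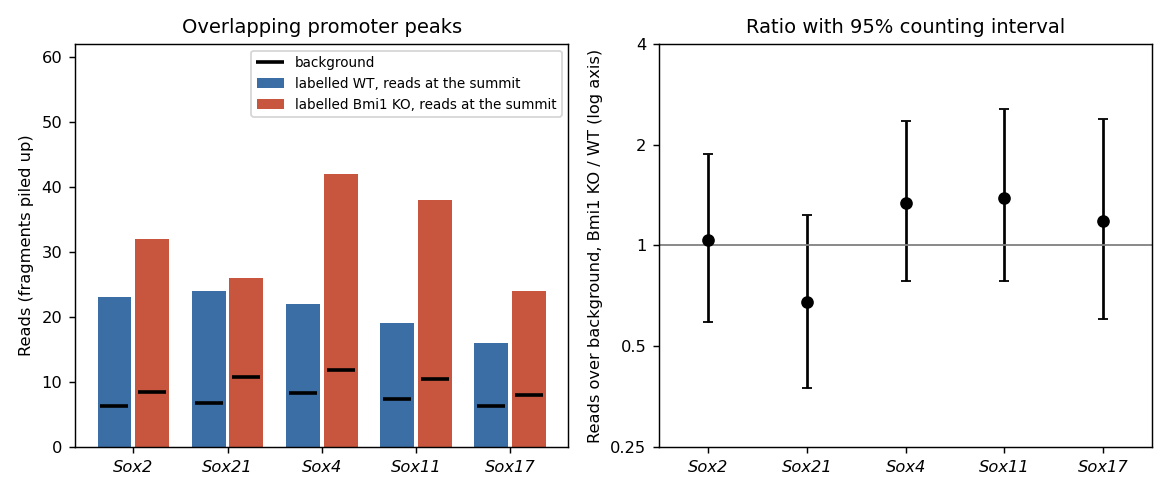
Left, reads piled up at each peak's own summit (bars) and expected background (black marks) of the overlapping promoter peaks of 5 Sox genes in each library. Right, ratio of reads over background, Bmi1 KO to WT, on a log axis with exact 95% counting intervals, all of which cross 1.

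Sox2 (SoxB1, chr3:34650405-34652461, plus strand, 1 exon), the prosensory and supporting-cell factor, lies inside the long noncoding gene Sox2ot and had 3 promoter peaks in each list. In the Bmi1 KO list the strongest was 1140 bp wide, chr3:34648880-34650019, upstream of the TSS, with 32 reads over a background of 8.44 (fold enrichment 3.50, percentile 97.1). It overlapped 2 separate WT peaks, 340 and 200 bp wide, of which the stronger, chr3:34648688-34649027, had 23 reads over 6.32 (fold enrichment 3.28, percentile 94.8). The ratio of reads over background between them was 1.04 (0.591 to 1.87). The summit of the Bmi1 KO peak, at 34649426, fell within the 200 bp WT peak, so this ratio compares different positions. A second overlapping pair lay in the coding exon, at percentile 92.6 (Bmi1 KO) and 56.8 (WT). A peak centred 20 bp from the TSS appeared in the Bmi1 KO list only, at percentile 66.6. Upstream of its start Sox2 was thus among the top 10% of both lists, which differed in how far the peak reached toward it.

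Sox21 (SoxB2, chr14:118233232-118237030, minus strand, 1 exon) encodes a repressor that counters Sox2 and is found in supporting cells. It had 4 promoter peaks in each list, of which 2 pairs overlapped. The strongest WT peak sat on the TSS (chr14:118236962-118237250) with 24 reads over 6.72, a fold enrichment of 3.24 and percentile 95.5. The overlapping Bmi1 KO peak had 26 reads over 10.7, a fold enrichment of 2.30 and percentile 63.7. The read counts were alike and the backgrounds were not, and the ratio of 0.678 had an interval of 0.374 to 1.23. The strongest Bmi1 KO promoter peak lay elsewhere, in the coding exon 2167 bp into the gene, at percentile 87.1, and no WT peak overlapped it. The predicted gene Gm4675 overlaps Sox21 and starts within 3 kb of these peaks, so they cannot be assigned to one start.

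Sox4 and Sox11 form the SoxC group, activators of neuronal and sensory differentiation that are co-expressed in hair cell precursors. At Sox4 (chr13:28948919-28953713, minus strand, 1 exon) the WT list had a peak on the TSS, 8 bp from its centre, with 25 reads and percentile 89.5, and no Bmi1 KO peak overlapped it. The Bmi1 KO list instead had an 828 bp peak centred 673 bp into the transcript, chr13:28952627-28953454, with its summit in the coding exon and 42 reads over 11.9 (percentile 98.1). A 223 bp WT peak inside it, with its summit in the 5′ UTR, had 22 reads over 8.32 (percentile 63.8), and the ratio was 1.34 (0.782 to 2.36). The gap between the WT peak on the start and the nearest Bmi1 KO peak was 109 bp.

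At Sox11 (chr12:27334264-27342574, minus strand, 1 exon), which has no other annotated gene in its window, a 753 bp Bmi1 KO peak lay just upstream of the TSS (chr12:27342658-27343410) with 38 reads over 10.5, a fold enrichment of 3.39 and percentile 97.8. It covered parts of 2 WT peaks, of which the stronger had 19 reads over 7.30, a fold enrichment of 2.41 and percentile 46.6. The percentiles differed by 51.2 points, yet the ratio of reads over background was 1.39 with an interval of 0.782 to 2.55. The summit of the Bmi1 KO peak, at 27343053, lay in neither WT peak, so this ratio compares different positions. The gap in rank was wide, while the interval of the ratio of reads over background included 1.

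None of the 3 SoxE genes had promoter peaks that overlapped between the lists. Sox8 (chr17:25565892-25570686, minus strand), which acts beside Sox9 and Sox10, had 1 promoter peak in each list, at different positions. The WT peak was in a coding exon at percentile 18.6, the Bmi1 KO peak was 724 bp wide and centred 404 bp upstream of a TSS at percentile 54.2, and 1660 bp lay between them. The TSS of 2810468N07Rik was 208 bp from the centre of the Bmi1 KO peak, so that peak cannot be assigned to Sox8 alone.

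Sox9 (chr11:112782224-112787760, plus strand, 3 exons), needed for otic invagination and for cartilage, had a Bmi1 KO peak at the TSS with 33 reads over 12.9 (fold enrichment 2.45, percentile 86.6) and another in the coding sequence at percentile 48.2. The only WT promoter peak was 2915 bp into the gene, in a coding exon, with 24 reads over 8.14 (fold enrichment 2.74, percentile 85.1). The percentiles of Sox9 were close, but they describe different places, since 1841 bp separated the WT peak from the nearest Bmi1 KO peak. The noncoding gene BC006965 starts 29 bp from the centre of the Bmi1 KO peak.

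Sox10 (chr15:79154908-79165240, minus strand), the glial and otic factor, was the only member with no promoter peak in either list. The nearest peak was a Bmi1 KO peak 3896 bp upstream of a TSS, at percentile 64.3, and the nearest WT peak was 10.4 kb upstream. That WT peak (percentile 50.4) overlapped a 735 bp Bmi1 KO peak (percentile 81.8). The other overlapping pair lay beyond the 3′ end, within 3 kb of a TSS of the RNA polymerase subunit gene Polr2f, at percentile 98.5 (WT) and 24.1 (Bmi1 KO). A peak that is not called may still be accessible below the threshold of the caller.

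Sox17 (SoxF, chr1:4490931-4497354, minus strand, 8 TSSs), a factor of endoderm and of arterial endothelium, had a pair of peaks in a coding exon, about 1.30 kb from the nearest TSS. The Bmi1 KO peak had 24 reads over 8.04 (fold enrichment 2.76, percentile 84.3) and the WT peak 16 reads over 6.32 (fold enrichment 2.32, percentile 23.3). The difference of 61.0 percentile points was the largest of the 7 genes with promoter peaks in both lists. The ratio of reads over background was 1.18 (0.601 to 2.38). The summit of the Bmi1 KO peak, at 4492412, lay outside the WT peak, so this ratio compares different positions. The WT peak was weak, with a −log10 q of 0.904. A further Bmi1 KO peak, at percentile 57.8, had no WT counterpart.

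Sox15 (SoxG, chr11:69655314-69656727, plus strand, 2 exons), the lone member of its group in mammals, had no WT promoter peak and 2 Bmi1 KO promoter peaks, both with summits in coding exons, at percentiles 65.6 and 9.4. Both lay within 3 kb of the TSS of Mpdu1, which overlaps Sox15, and cannot be assigned to one of the genes. The nearest WT peak was 3554 bp downstream of the TSS, past the 3′ end of the gene. The stronger Bmi1 KO peak had 29 reads over a background of 12.4, a fold enrichment of 2.25.

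Base composition about the gene start, which no step of the choice used, varied among members. In the 1001 bases about the 5′ end, the ratio of observed to expected CpG was 0.959 at Sox2, 0.908 at Sox11, 0.804 at Sox9 and 0.796 at Sox4, against a median of 0.552 over all protein-coding genes. Sox21, Sox8 and Sox17 had 0.736, 0.686 and 0.677. The overlapping promoter peaks of Sox17 were centred 5054 bp (WT) and 5049 bp (Bmi1 KO) from its 5′ end, so its ratio describes another place. Sox15, at 0.512, and Sox10, at 0.166, were below the median, and these were the members without promoter peaks in both lists. This is a description of 9 genes.

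Across the loci, 84 Bmi1 KO and 64 WT peaks gave a ratio of 1.31 (0.937 to 1.85), beside 1.29 over all peaks. Sox8 (12 against 6), Sox2 (11 against 6), Sox21 (13 against 8), Sox15 (13 against 8), Sox11 (6 against 4) and Sox17 (4 against 3) had more Bmi1 KO peaks, Sox10 (10 against 12) and Sox4 (7 against 9) had more WT peaks, and Sox9 had 8 in each. The ratio over all peaks lay inside the counting interval of each of the 9 genes. The members had a median of 7.58 WT and 9.06 Bmi1 KO peaks per 100 kb, against 5.20 and 6.56 over windows of all protein-coding genes, whose quartiles were 1.91 and 7.97 (WT) and 2.90 and 9.70 (Bmi1 KO).

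**Figure D3:**
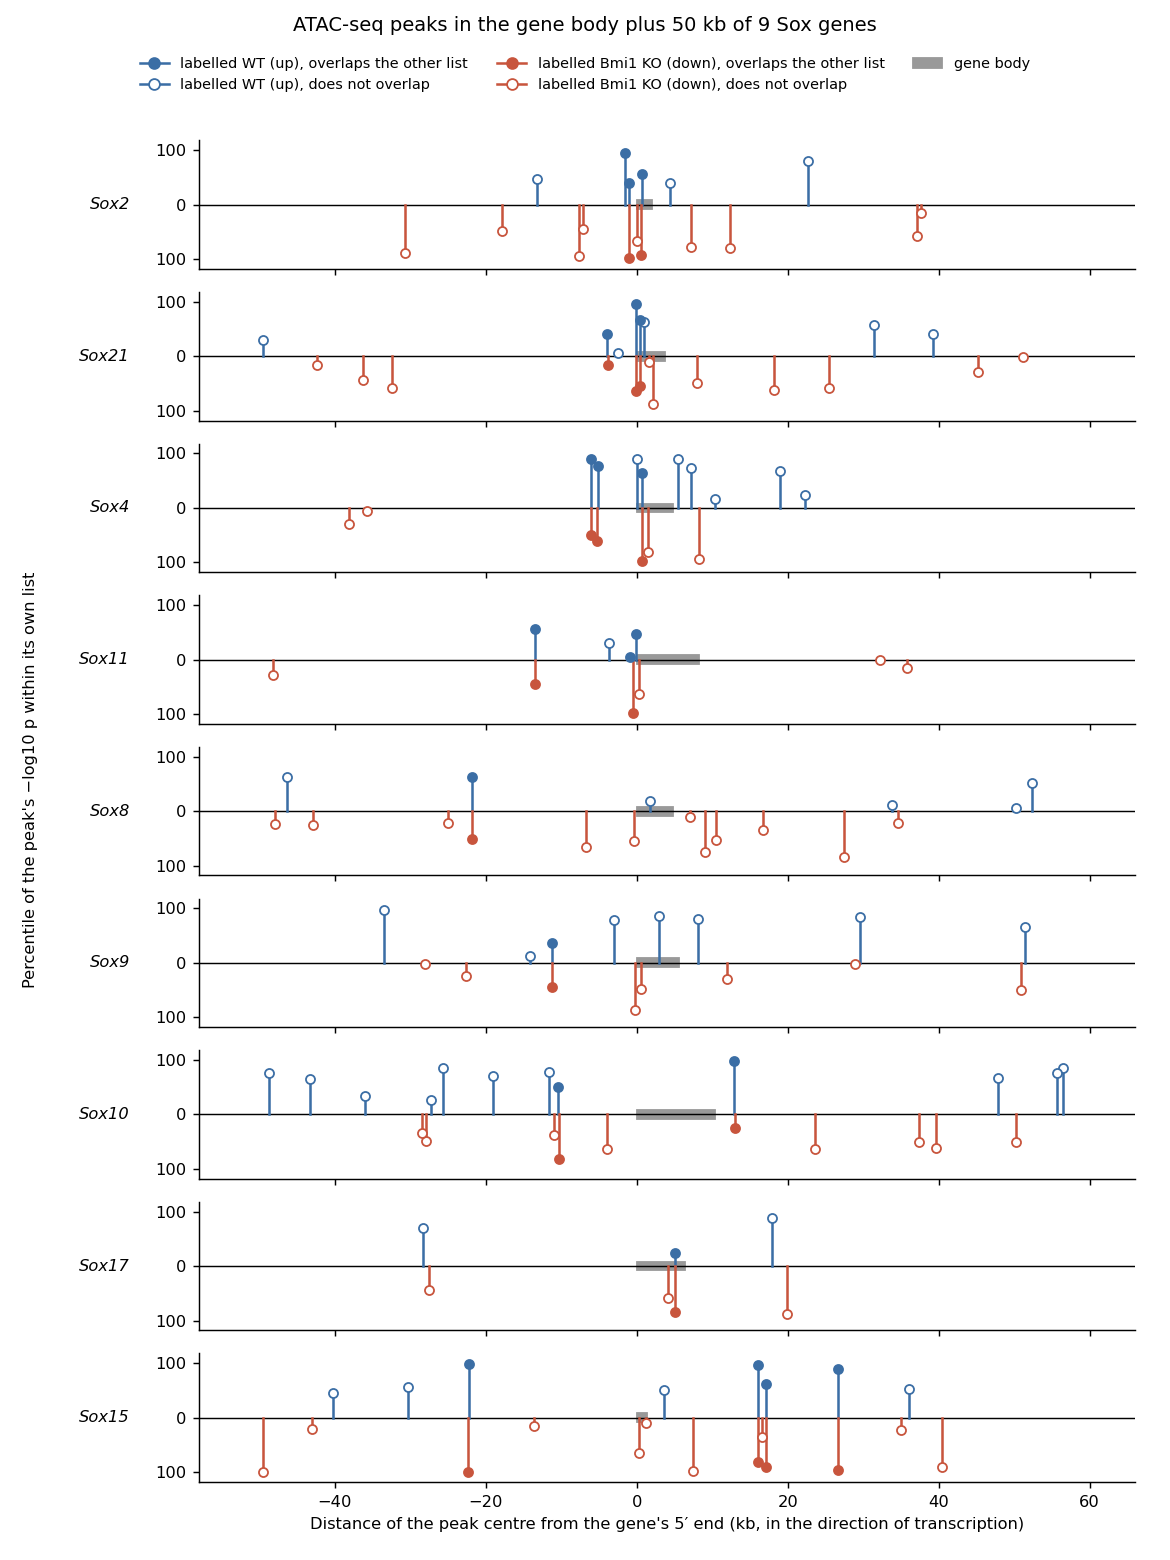
Peaks in the gene body plus 50 kb of each Sox gene, by distance of the peak centre from the gene's 5′ end in kb (x axis) and percentile within the peak's own list (y axis, WT upward, Bmi1 KO downward), with filled points for peaks that overlap the other list and a grey bar for the gene body. Overlapping peaks gather near the starts of Sox2, Sox21, Sox4 and Sox11, and 108 of the 148 peaks are open points.

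Most of these peaks were found in 1 list. Overlap was seen for 21 of 64 WT peaks, 32.8% (21.6 to 45.7), and for 19 of 84 Bmi1 KO peaks, 22.6% (14.2 to 33.0). In windows of all protein-coding genes the shares were 26.6% and 20.2%, both inside those intervals. The 43 WT peaks without a partner were a median of 2450 bp from the nearest Bmi1 KO peak, and the 65 Bmi1 KO peaks without one a median of 4348 bp from the nearest WT peak. Sox15 had most overlapping peaks, 4 in each list, and these lay at the starts of its neighbours Fxr2, Eif4a1 and Senp3. In its window 7 of 8 WT peaks and 11 of 13 Bmi1 KO peaks were within 3 kb of the TSS of another gene. Sox8, Sox9 and Sox17 had 1 overlapping peak in each list.

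**Figure D4:**
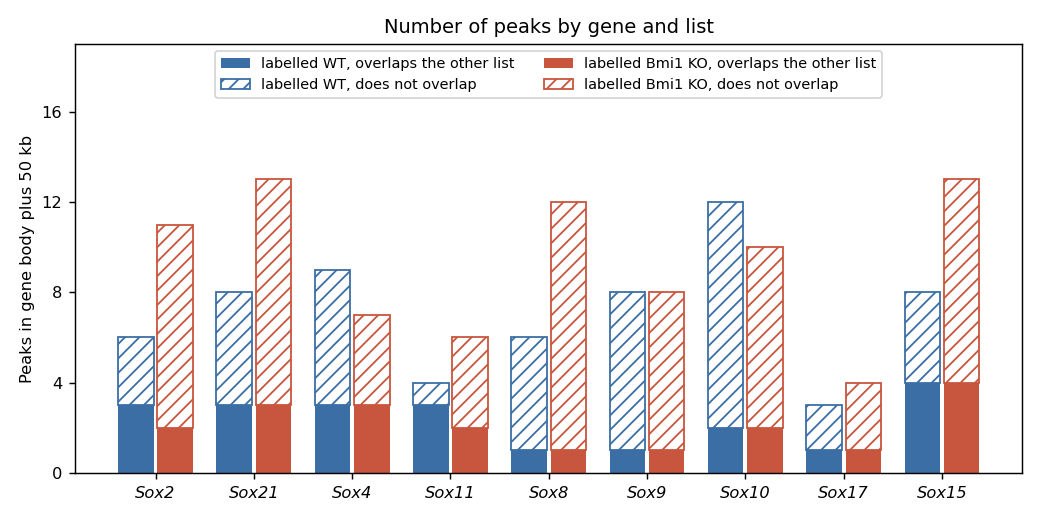
Number of peaks (y axis) in the gene body plus 50 kb of each Sox gene in the WT list (blue) and the Bmi1 KO list (red), with solid parts for peaks that overlap the other list and hatched parts for those that do not. The solid parts hold 1 to 4 peaks per gene and list, and the hatched parts make up most bars.

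The median fold enrichment of the members was 2.56 (WT) and 2.26 (Bmi1 KO), against 2.46 and 2.32 over all peaks, and 43 of 64 WT and 56 of 84 Bmi1 KO peaks had a q-value under 0.05 (67.2% and 66.7%, against 52.4% and 62.8% of all peaks). In the top 10% of their list were 8 WT and 12 Bmi1 KO peaks, or 12.5% and 14.3%. The strongest of these, at percentiles 98.9 (WT) and 99.4 (Bmi1 KO), was at the start of Fxr2 in the Sox15 window. The strongest distal WT peak was 33.4 kb upstream of Sox9 with 24 reads over 6.32 (fold enrichment 3.41, percentile 96.5), and the nearest Bmi1 KO peak was 5077 bp away. A Bmi1 KO peak 7.67 kb upstream of Sox2, 524 bp from a TSS of the predicted gene Gm42692, stood at percentile 95.2. Another, 8.25 kb downstream of the Sox4 start and 2416 bp from that of Gm26735, stood at percentile 94.0. None of these 3 had a partner in the other list.

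Sox cores were not frequent at the members' own peaks. Within 100 bp of the summit, 2 of 64 WT peaks held one, 3.12% (0.381 to 10.8), and 4 of 84 Bmi1 KO peaks, 4.76% (1.31 to 11.7), against 5.98% and 6.02% of all peaks of these lists. Windows 1 kb to either side of the members' summits held one in 9.38% (WT) and 5.95% (Bmi1 KO) of cases, and those about all peaks in 6.97% and 6.96%. The shares at members could not be told from the background at these counts. Of the matches outside the Sox9 region shown earlier, 5 are printed with 12 bases on either side, on the strand that reads the core in capitals, since they carry the letters searched for. They lay at chr13:28931457-28931487 (Sox4, WT, plus), chr13:28945486-28945516 (Sox4, Bmi1 KO, minus), chr17:25577443-25577473 (Sox8, Bmi1 KO, plus), chr17:25577498-25577528 (Sox8, Bmi1 KO, minus) and chr11:112811730-112811760 (Sox9, WT, plus).
Sox4 in the WT list: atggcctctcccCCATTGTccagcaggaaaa
Sox4 in the Bmi1 KO list: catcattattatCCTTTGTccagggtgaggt
Sox8 in the Bmi1 KO list, site A: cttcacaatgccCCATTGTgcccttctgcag
Sox8 in the Bmi1 KO list, site B: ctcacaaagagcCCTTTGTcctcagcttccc
Sox9 in the WT list: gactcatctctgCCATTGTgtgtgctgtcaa

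The Sox9 core of the WT list was nearest to its summit, with its middle 8 bp away, and the peak stood at percentile 84.7. The Sox4 core of the Bmi1 KO list was 45 bp from the summit of the peak at percentile 94.0 described earlier. Both Sox8 cores belonged to 1 peak at percentile 65.4. Of the 7 cores at members, the one in the Sox9 region printed earlier, 44 bp from the summit, was in a peak that overlapped the other list. A match describes letters and not binding.

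The remaining Sox genes were read the same way. Of 11 (Sox1, Sox3, Sox5, Sox6, Sox7, Sox12, Sox13, Sox14, Sox18, Sox30 and Sry), 6 had a promoter peak in both lists, 2 in the Bmi1 KO list only, 1 in the WT list only and 2 in neither. The shares of all genes were 53.0% in both lists, 15.2% in the Bmi1 KO list only and 25.7% in neither. Of the 9 with a promoter peak, 6 ranked higher in the Bmi1 KO list (66.7%, against 68.6% of all genes with one). These 6 include the 2 with a promoter peak in the Bmi1 KO list only. The largest percentile differences among those with both peaks were at Sox6 (40.1 in WT and 92.6 in Bmi1 KO), a partner of Sox9 in cartilage, at Sox12 (61.9 and 98.3), the further SoxC gene, and at Sox3 (87.8 and 57.8), a SoxB1 gene like Sox2. No promoter peaks of Sox3 overlapped between the lists, so its percentiles describe different places.

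Of 12 genes that work with Sox2 in the prosensory domain, 10 had promoter peaks in both lists, 2 in the WT list only, and 7 ranked higher in the Bmi1 KO list (58.3%), against 53.0% of all genes with peaks in both lists and 68.6% ranking higher. Hes1, a Notch effector, stood at percentile 16.4 in WT and 96.9 in Bmi1 KO, and Cdkn1b, the cell cycle inhibitor p27, at 31.5 and 82.7. No promoter peaks of Hes1 overlapped between the lists, so its percentiles describe different places. Of 12 glial genes of the Sox10 pathway, 6 had promoter peaks in both lists, 1 in the Bmi1 KO list only, 2 in the WT list only and 3 in neither. Over all protein-coding genes the shares were 53.0% in both lists, 15.2% in the Bmi1 KO list only and 25.7% in neither. Of the 9 glial genes with a peak, 3 ranked higher in the Bmi1 KO list (33.3%, against the same 68.6%). Among the glial genes Tfap2a, a neural crest factor, stood at 28.6 and 90.1, Mitf, the melanocyte factor, at 94.8 and 78.0, and Pmp22, a myelin gene, at 84.7 and 74.3. No promoter peaks of Tfap2a or of Pmp22 overlapped between the lists, so their percentiles describe different places. These lists have 1 value per gene and library and the counts were not tested.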

How the data were processed

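Per the labels, WT and Bmi1 KO organ of Corti nuclei were profiled by ATAC-seq, with paired 150-base reads. The authors used FastQC, BWA, MACS2 and HOMER with build mm10 (versions for ATAC-seq not given in the sources used here) and deposited 1 peak list per library, 77826 (WT) and 100668 (Bmi1 KO) peaks. In the deposited lists, the summit fold enrichment over background is a ratio, p- and q-values are given as −log10, and a score column is 10 times the −log10 p in whole numbers and was not used. All listed peaks had a −log10 p of at least 2.00.

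Peaks off chromosomes 1 to 19, X and Y were left out (230 and 237). Whole read numbers and backgrounds were solved from fold enrichment and −log10 p, and 100% of member peaks came out whole within 0.02. The depth of the libraries is not stated in the lists, so only these summit reads set the precision. Percentiles of −log10 p were taken within each list. Intervals were exact binomial or exact conditional Poisson, with backgrounds taken as known. Scripts ran in Python 3.11.15 with numpy 2.4.6, pandas 2.3.3, scipy 1.17.1 and pysam 0.24.0 and were tested on simulated data.

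Members and gene lists were chosen with earlier results of these data known. Named were all 9 members with their promoter peaks and, in each gene list, the 3 genes with the largest percentile difference among those with promoter peaks in both lists. An item of the gene lists and a sequence that these rules would name are not reported here. Individual locus peaks named for strength were chosen after their values were seen. Alternatives varied the q-value minimum, the windows, the overlap, the motif window and the ranking measure.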

Additional observations from a re-analysis of the deposited data

How the results depend on the processing

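With 1 library per genotype there is no replicate error, and the 16 to 42 reads at the overlapping promoter peaks gave ratio intervals that spanned 1. No paired analysis was possible because each group has 1 library. Of 46 alternatives, 34 left a share or ratio inside its counting interval, a median ratio within the spread of the members, or moved a count by less than 1.5 times, and 12 moved it by more.

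At −log10 q of at least 2, 4 genes had promoter peaks in both lists in place of 7, and the share of WT locus peaks overlapped was 21.1%. At −log10 q of at least 5, where 9 locus peaks are left, 0 genes had promoter peaks in both lists, 3 of 3 ranked higher in the Bmi1 KO list, the ratio of locus peaks was 3.50, the WT share overlapped was 50%, and 0 of 9 peaks held a Sox core, which allows a share of up to 33.3%. With no gene in both lists, these 3 were counted as higher only because they had no WT promoter peak. With promoters of 1 kb, 4 genes had peaks in both lists. With 25 kb flanks the WT share overlapped was 47.6%. The shares over all genes given earlier hold for the main settings only, so the values at other settings cannot be set against them. With the lists exchanged as their peak names read, an alternative chosen after seeing the data, 1 gene ranked higher in the Bmi1 KO list, the ratio of locus peaks was 0.762, and the median ratio of reads over background was 0.848. With the same number of strongest peaks from each list the ratio of locus peaks was 1.05.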

Other observations

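Targets of the remaining Sox groups were read in the same lists. Of 10 cartilage genes of the Sox9 pathway, 5 had promoter peaks in both lists, 4 in the Bmi1 KO list only and 1 in the WT list only. Over all protein-coding genes the shares were 53.0% in both lists and 15.2% in the Bmi1 KO list only. Counting the 4 with no WT percentile as higher, 9 of the 10 ranked higher in the Bmi1 KO list. This was 90%, against 68.6% of all genes with a promoter peak, counted the same way. Hapln1, a link protein of cartilage matrix, stood at percentile 40.1 in WT and 91.4 in Bmi1 KO, Col9a2, a collagen IX chain, at 29.5 and 80.6, and Col11a2, a collagen XI chain of the tectorial membrane, at 61.4 and 86.8. No promoter peaks of Col9a2 or of Col11a2 overlapped between the lists, so their percentiles describe different places. The count comes from 1 library per genotype and was not tested.

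Of 10 endothelial genes of the SoxF pathway, 6 had promoter peaks in both lists, 1 in the Bmi1 KO list only, 2 in the WT list only and 1 in neither. The shares of all protein-coding genes were 53.0% in both lists, 15.2% in the Bmi1 KO list only and 25.7% in neither. Of the 9 endothelial genes with a peak, 6 ranked higher in the Bmi1 KO list (66.7%, against 68.6%). Esam, an endothelial adhesion molecule, stood at percentile 28.5 in WT and 81.9 in Bmi1 KO, Cdh5, the endothelial cadherin, at 31.5 and 80.0, and Kdr, a VEGF receptor, at 56.8 and 84.3. No promoter peaks of Cdh5 overlapped between the lists, so its percentiles describe different places.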
